A study of Mus musculus with 9 samples.

Results

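The 8 genes described here encode inhibitory or sialic-acid-binding receptors of immune cells and tyrosine phosphatases of leukocytes: Lilrb4a, Pirb, Cd33, Cd22, Siglece, Sirpa, Ptpn6 and Ptprc. They were taken by symbol from a table of 56748 genes, and all 8 were present. They were chosen by function, with the counts and fold changes of the same libraries in view. Their adjusted p-values below therefore give each gene's place in the fit over all tested genes as a description, and are no test of the group. Brain tissue without the cerebellum came from 7-month-old mice, with 3 libraries per genotype and 1 mouse per library. The 5xFAD/Cd5l tg/wt mice carried the 5xFAD transgenes and, in addition, a transgene for mouse CD5L under the human PDGF-B promoter. The 5xFAD mice carried the 5xFAD transgenes alone, which are mutant human genes, APP among them, expressed from the neuronal Thy1 promoter so that amyloid accumulates. Wild-type mice carried neither. CD5L is a secreted protein of macrophages with scavenger-receptor domains.

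Many inhibitory receptors of immune cells carry short tyrosine motifs in their cytoplasmic tails, called ITIMs. When Src-family kinases phosphorylate an ITIM, it recruits phosphatases such as SHP-1, the product of Ptpn6, which then remove phosphate from activating pathways, among them the ITAM adaptors TYROBP and FcRγ. Siglecs such as CD33, CD22 and Siglec-E bind sialic acid on neighbouring cells, SIRPα binds CD47, and PirB binds MHC class I. CD45, the product of Ptprc, acts on the Src-family kinases themselves and can both restrain and permit their activity. In brain, most of these genes are read mainly in microglia, whereas Sirpa is also abundant in neurons.

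Promoter windows from RefSeq (GRCm38.p6, 250 bases before to 50 after a gene's start) were found for 6 of the 8 genes: Pirb, Cd33, Cd22, Siglece, Ptpn6 and Ptprc. Shown here are those of the genes whose 5xFAD/Cd5l tg/wt and 5xFAD libraries did not overlap, with capitals marking AGGAAGT or its reverse complement ACTTCCT, a form of the ETS motif that PU.1, a transcription factor of myeloid cells, can bind. The coordinates are of that build and not of the build of the counts.
Pirb (chr7:3720333-3720632, minus strand): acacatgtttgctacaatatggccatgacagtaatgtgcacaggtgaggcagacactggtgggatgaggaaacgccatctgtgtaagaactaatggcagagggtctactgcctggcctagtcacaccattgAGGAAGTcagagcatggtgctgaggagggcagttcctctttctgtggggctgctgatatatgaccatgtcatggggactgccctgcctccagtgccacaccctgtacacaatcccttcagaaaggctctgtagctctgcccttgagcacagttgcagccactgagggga
Cd33 (chr7:43533122-43533421, minus strand): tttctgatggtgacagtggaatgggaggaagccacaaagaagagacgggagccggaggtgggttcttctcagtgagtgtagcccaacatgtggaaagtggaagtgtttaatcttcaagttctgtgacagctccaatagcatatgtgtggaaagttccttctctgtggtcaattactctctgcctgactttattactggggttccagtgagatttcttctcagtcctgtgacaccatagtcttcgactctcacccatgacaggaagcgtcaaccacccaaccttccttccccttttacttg
Ptpn6 (chr6:124738660-124738959, minus strand): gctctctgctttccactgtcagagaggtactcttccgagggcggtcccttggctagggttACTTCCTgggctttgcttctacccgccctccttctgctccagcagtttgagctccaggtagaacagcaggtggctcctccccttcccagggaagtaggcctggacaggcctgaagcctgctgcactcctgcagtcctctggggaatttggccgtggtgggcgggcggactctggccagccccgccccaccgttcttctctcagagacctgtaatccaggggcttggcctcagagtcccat
Ptprc (chr1:138175256-138175555, minus strand): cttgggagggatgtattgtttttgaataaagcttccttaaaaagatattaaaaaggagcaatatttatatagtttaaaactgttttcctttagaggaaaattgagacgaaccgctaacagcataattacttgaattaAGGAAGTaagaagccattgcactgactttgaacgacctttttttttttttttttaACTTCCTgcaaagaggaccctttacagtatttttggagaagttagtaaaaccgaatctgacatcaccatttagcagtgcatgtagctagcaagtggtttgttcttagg
The motif lay in 4 of the 7 windows of the 6 genes and in 9.35% of all 32851 windows of the same length, on either strand. By gene these were 3 of the 6, Pirb, Ptpn6 and Ptprc. Ptprc had a second, overlapping window that held 1 match, shared with the window shown. The Cd22 and Siglece windows, like that of Cd33, held no match. The RefSeq start of a gene can differ from the start of the counted gene, so this holds for these windows only. Lilrb4a and Sirpa are not shown.

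Library totals ran from 14575416 to 17865150 counts, and 17575 genes passed the filter on low counts and were tested. Cd5l itself was counted 2553, 2822 and 3551 times in 5xFAD/Cd5l tg/wt brains, while each 5xFAD library held 0, and wild-type libraries held 0, 1 and 0. Neuronal markers were abundant in every library, with 7400 to 8200 summed CPM (counts scaled to library size) for 9 genes. The 12 microglial markers summed to 767 to 839 CPM in 5xFAD/Cd5l tg/wt, 639 to 809 CPM in 5xFAD and 378 to 422 CPM in wild-type brains. Hindbrain and cerebellar markers, 10 genes, summed to 56.9 to 168 CPM in 5xFAD/Cd5l tg/wt, 149 to 192 CPM in 5xFAD and 149 to 914 CPM in wild-type. Regional markers set 3 libraries apart, number 3 of wild-type and numbers 2 and 3 of 5xFAD/Cd5l tg/wt, and results of the 8 genes that rest on them are given with and without these.

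Of the 8 genes, 7 were tested. Pirb did not reach the count filter, with 62 counts over all libraries. Cd33, Sirpa, Ptpn6 and Ptprc were above the filter level in all 9 libraries. Lilrb4a reached it in 3 5xFAD/Cd5l tg/wt, 2 5xFAD and 0 wild-type libraries, and Cd22 in 3, 3 and 0, so both entered the test through the groups in which they were high. Siglece reached it in 1 5xFAD/Cd5l tg/wt, 3 5xFAD and 2 wild-type libraries.

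Lilrb4a (ENSMUSG00000112148, chromosome 10, 51367052 to 51372707 in GRCm39, the build of all gene positions here) encodes a myeloid receptor with ITIMs. It had 44, 57 and 79 counts in 5xFAD/Cd5l tg/wt libraries, 15, 11 and 20 in 5xFAD libraries, and 5, 3 and 2 in wild-type libraries. The genotypes did not overlap, with every 5xFAD/Cd5l tg/wt library highest and every wild-type library lowest. The means were 3.74 ± 0.769 CPM in 5xFAD/Cd5l tg/wt, 0.983 ± 0.361 CPM in 5xFAD and 0.204 ± 0.0784 CPM in wild-type brains (SD, n = 3). The log2 fold change over 5xFAD was 1.94 ± 0.33 in 5xFAD/Cd5l tg/wt (SE, edgeR quasi-likelihood test, adjusted p = 0.00542), and 2.19 ± 0.47 for 5xFAD against wild-type (adjusted p = 0.0229). Over wild-type, 5xFAD/Cd5l tg/wt reached 4.13 ± 0.41 (adjusted p = 0.000121), or 17.5-fold. The near-identical gene Lilrb4b had 15 counts in all 5xFAD/Cd5l tg/wt libraries, 8 in 5xFAD and 13 in wild-type, and how reads shared between the paralogs were assigned is not given, so the Lilrb4a counts are uncertain to that extent. For 5xFAD against wild-type, Lilrb4a missed the threshold without wild-type library 2 or 3 or 5xFAD library 1 or 3 (adjusted p = 0.0718 to 0.0827), without the 3 apart in regional markers (adjusted p = 0.0577) and with limma-voom (adjusted p = 0.0653). Over 5xFAD it missed the threshold when the 3 were left out (adjusted p = 0.0923).

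Pirb (ENSMUSG00000058818, chromosome 7, 3714408 to 3723390) encodes the inhibitory member of the paired immunoglobulin-like receptors. It had 10, 9 and 11 counts in 5xFAD/Cd5l tg/wt libraries, 7, 8 and 5 in 5xFAD libraries, and 4, 6 and 2 in wild-type libraries. Each 5xFAD/Cd5l tg/wt library was above all others, while 5xFAD and wild-type libraries overlapped. In an edgeR fit with no filter, Pirb did not pass in any comparison, with log2 values in 5xFAD/Cd5l tg/wt of 0.58 ± 0.62 over 5xFAD (adjusted p = 0.673) and 1.31 ± 0.66 over wild-type (adjusted p = 0.469). Its activating relatives had almost no counts: Pira1 had 3 and Pira2 had 1 over all libraries.

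Among the Siglec genes, Cd33 (ENSMUSG00000004609, chromosome 7, 43173640 to 43193852) was the most abundant of the 3 members. Its human counterpart lies at a locus associated with Alzheimer's disease risk. Cd33 had 229, 251 and 270 counts in 5xFAD/Cd5l tg/wt libraries, 161, 160 and 181 in 5xFAD libraries, and 151, 149 and 133 in wild-type libraries. In CPM the means were 15.8 ± 0.973 in 5xFAD/Cd5l tg/wt, 10.6 ± 1.57 in 5xFAD and 9.01 ± 0.213 in wild-type (SD, n = 3), with the 5xFAD/Cd5l tg/wt libraries above the rest and the other genotypes overlapping. In 5xFAD/Cd5l tg/wt, Cd33 rose over 5xFAD by 0.58 ± 0.13 (log2, edgeR, adjusted p = 0.0238) and over wild-type by 0.81 ± 0.13 (adjusted p = 0.00638). The change of 5xFAD against wild-type was 0.23 ± 0.14 (adjusted p = 0.445), with a 95% interval of the fold from 0.975 to 1.41. The rise over 5xFAD missed the threshold without 5xFAD library 1 or 2 or library 2 or 3 of 5xFAD/Cd5l tg/wt (adjusted p = 0.0635 to 0.13), and the rise over wild-type missed it when the 3 set apart by regional markers were left out (adjusted p = 0.0722).

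Cd22 (ENSMUSG00000030577, chromosome 7, 30564827 to 30579767) encodes a Siglec that restrains signalling of the B cell receptor and has also been reported on microglia. It had 49, 20 and 40 counts in 5xFAD/Cd5l tg/wt libraries, 12, 28 and 23 in 5xFAD libraries, and 10, 3 and 2 in wild-type libraries. Both amyloid genotypes were above wild-type without overlap in CPM, and they overlapped each other. The means were 2.29 ± 0.957 CPM in 5xFAD/Cd5l tg/wt, 1.30 ± 0.440 CPM in 5xFAD and 0.301 ± 0.244 CPM in wild-type (SD, n = 3). Cd22 rose by 2.86 ± 0.53 in 5xFAD/Cd5l tg/wt against wild-type (log2, edgeR, adjusted p = 0.0141). The other comparisons did not pass, with 2.05 ± 0.55 for 5xFAD against wild-type (adjusted p = 0.067) and 0.81 ± 0.43 for 5xFAD/Cd5l tg/wt against 5xFAD (adjusted p = 0.297). Single libraries decided these calls: the rise over wild-type missed the threshold without wild-type library 2 or 3 or library 3 of 5xFAD/Cd5l tg/wt (adjusted p = 0.0599 to 0.0684), and 5xFAD against wild-type passed once library 1 of wild-type (adjusted p = 0.0408) or of 5xFAD/Cd5l tg/wt (adjusted p = 0.0457) was left out. It also passed with DESeq2 (adjusted p = 0.0168) and with no filter (adjusted p = 0.000885). Of the 9 B cell markers, 2 were tested: Ighm had 2023 counts in 5xFAD/Cd5l tg/wt, 1573 in 5xFAD and 1528 in wild-type, and Pax5 had 53, 83 and 42 in the same order. Ighd had 27, 21 and 12 counts and Cd79a had 7 in each genotype, while Ms4a1 had 1 count in 5xFAD and 0 elsewhere. The summed CPM of the list, which overlapped between genotypes, are given with the other immune cells, and its part in the Cd22 values was not tested.

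Siglece (ENSMUSG00000030474, chromosome 7, 43300494 to 43309585), which encodes a Siglec of mouse myeloid cells with ITIMs, was the 1 member with no positive fold change over the 9 libraries. It had 9, 8 and 16 counts in 5xFAD/Cd5l tg/wt libraries, 13, 12 and 15 in 5xFAD libraries, and 8, 23 and 10 in wild-type libraries, and all genotypes overlapped. At this depth no difference was detectable: the 95% interval of the fold ran from 0.441 to 1.52 for 5xFAD/Cd5l tg/wt against 5xFAD and from 0.541 to 1.80 for 5xFAD against wild-type. The sign against wild-type changed with the setting: without wild-type library 2 the log2 values were 0.26 in 5xFAD/Cd5l tg/wt and 0.56 in 5xFAD, and the 5xFAD value was also above 0 without 5xFAD library 2 (0.13), with limma-voom (0.10) and with the replicate block (0.0096). None of these passed.

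**Figure D1:**
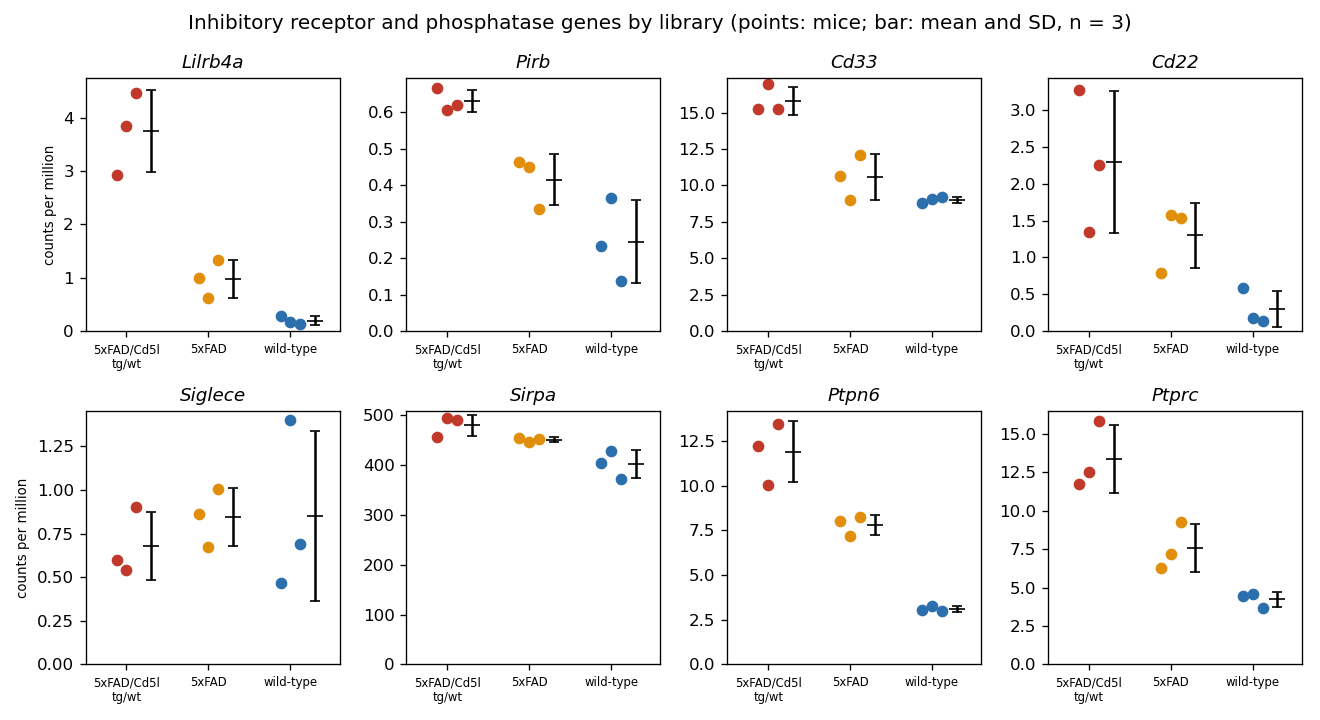
CPM (linear axis) of each of the 8 genes in each of the 9 libraries, by genotype, with the mean and SD beside the points. Lilrb4a, Sirpa, Ptpn6 and Ptprc show 3 levels without overlap between genotypes, and Siglece overlaps throughout.

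Sirpa (ENSMUSG00000037902, chromosome 2, 129434755 to 129474148) encodes the CD47 receptor that restrains phagocytosis and was by far the most abundant member. It had 6856, 7339 and 8692 counts in 5xFAD/Cd5l tg/wt libraries, 6869, 7952 and 6773 in 5xFAD libraries, and 6951, 7051 and 5393 in wild-type libraries. Scaled to depth, these were 457 to 495 CPM in 5xFAD/Cd5l tg/wt, 446 to 455 CPM in 5xFAD and 373 to 429 CPM in wild-type, so that the genotypes did not overlap. The margin over 5xFAD was narrow, with library 1 of 5xFAD/Cd5l tg/wt at 456.5 CPM and library 1 of 5xFAD at 454.6 CPM. Without the libraries set apart by regional markers, the log2 value over 5xFAD changed sign. The differences were small and none passed: 0.09 ± 0.07 for 5xFAD/Cd5l tg/wt against 5xFAD (log2, edgeR, adjusted p = 0.443), 0.17 ± 0.07 for 5xFAD against wild-type (adjusted p = 0.221) and, over wild-type, 0.26 ± 0.07 in 5xFAD/Cd5l tg/wt (adjusted p = 0.0859). The 95% interval of this last fold was 1.09 to 1.31, and it passed when library 1 of 5xFAD/Cd5l tg/wt was left out (adjusted p = 0.0349), with DESeq2 (adjusted p = 0.0246) and with no filter (adjusted p = 0.0384). The related genes Sirpb1a, Sirpb1b and Sirpb1c had 1, 0 and 0 counts over all libraries.

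Ptpn6 (ENSMUSG00000004266, chromosome 6, 124697670 to 124715677), the gene of SHP-1, had 184, 149 and 238 counts in 5xFAD/Cd5l tg/wt libraries, 121, 128 and 123 in 5xFAD libraries, and 52, 54 and 43 in wild-type libraries. Its means were 11.9 ± 1.72 CPM in 5xFAD/Cd5l tg/wt, 7.81 ± 0.552 CPM in 5xFAD and 3.09 ± 0.167 CPM in wild-type (SD, n = 3), again in separate ranges. Ptpn6 rose by 1.33 ± 0.17 in 5xFAD against wild-type (log2, edgeR, adjusted p = 0.000772) and by 1.94 ± 0.16 in 5xFAD/Cd5l tg/wt against wild-type (adjusted p = 2.32e-05). It rose by 0.61 ± 0.15 in 5xFAD/Cd5l tg/wt against 5xFAD (adjusted p = 0.033). The last call was lost without any 1 of 5xFAD libraries 1, 2 and 3, wild-type library 2 or library 3 of 5xFAD/Cd5l tg/wt (adjusted p = 0.0521 to 0.163), whereas the rises over wild-type passed under every alternative run.

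Ptprc (ENSMUSG00000026395, chromosome 1, 137990599 to 138103446), the gene of CD45, had 176, 186 and 281 counts in 5xFAD/Cd5l tg/wt libraries, 95, 128 and 139 in 5xFAD libraries, and 77, 75 and 53 in wild-type libraries. The means of 13.4 ± 2.19 CPM in 5xFAD/Cd5l tg/wt, 7.59 ± 1.55 CPM in 5xFAD and 4.23 ± 0.495 CPM in wild-type (SD, n = 3) came from ranges that did not overlap. Ptprc rose by 0.82 ± 0.18 in 5xFAD/Cd5l tg/wt against 5xFAD (log2, edgeR, adjusted p = 0.0198), by 0.84 ± 0.19 in 5xFAD against wild-type (adjusted p = 0.0325) and by 1.66 ± 0.19 in 5xFAD/Cd5l tg/wt against wild-type (adjusted p = 0.000352). The rise of 5xFAD over wild-type missed the threshold when any 1 of the 5xFAD or wild-type libraries was left out (adjusted p = 0.0539 to 0.118) and with limma-voom (adjusted p = 0.0689). The rise over 5xFAD missed it without 5xFAD library 1 or 2 or library 3 of 5xFAD/Cd5l tg/wt (adjusted p = 0.0914 to 0.11).

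**Figure D2:**
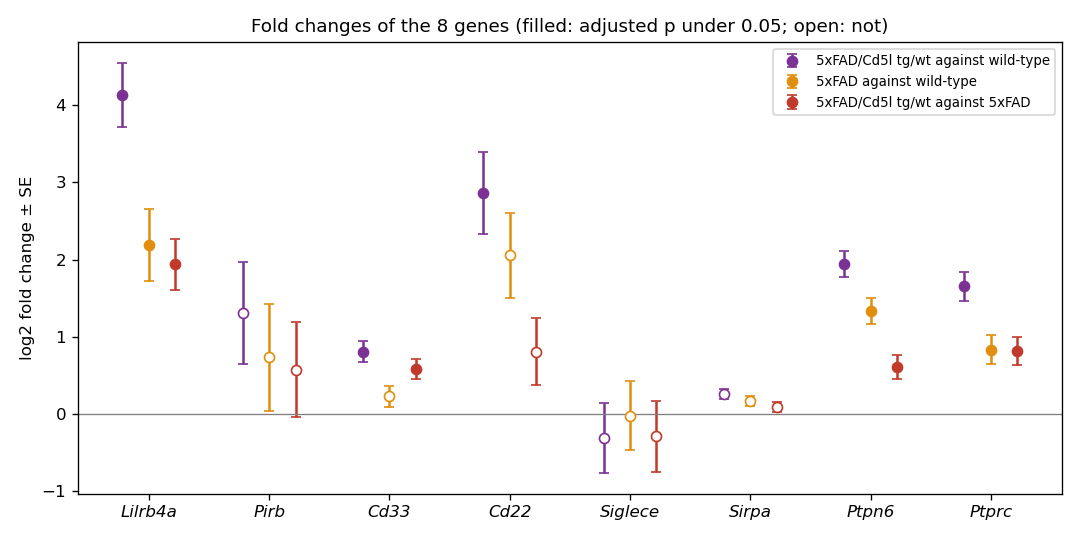
Log2 fold changes with their SE for the 8 genes in 3 comparisons. Filled points passed an adjusted p of 0.05, and the values of Pirb come from a fit with no filter; Lilrb4a reaches 4.13 against wild-type.

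Counted by comparison, 4 of the 7 tested genes were higher and passed in 5xFAD/Cd5l tg/wt over 5xFAD: Lilrb4a, Cd33, Ptpn6 and Ptprc. There, 6.23% of all tested genes passed and 5.34% passed as higher. In 5xFAD against wild-type 3 passed, Lilrb4a, Ptpn6 and Ptprc, where 3.5% of all genes passed and 1.06% passed as higher. In the fit of only the 6 libraries of these genotypes, Lilrb4a was under the filter and 2 passed. Over wild-type, 5 passed in 5xFAD/Cd5l tg/wt, namely Lilrb4a, Cd33, Cd22, Ptpn6 and Ptprc, where 1.58% of all genes passed and 1.38% passed as higher. Lilrb4a and Cd22 reached the filter level in 0 wild-type libraries, so these counts include genes tested only through groups in which they were high. Libraries did not overlap, with 5xFAD/Cd5l tg/wt higher, for 5 of the 7 tested genes over 5xFAD (all but Cd22 and Siglece, against 16.6% of all tested genes) and for 6 over wild-type (all but Siglece, against 7.93%). The untested Pirb did not overlap in either. For 5xFAD over wild-type they did not overlap for 5, Lilrb4a, Cd22, Sirpa, Ptpn6 and Ptprc, against 10.4%. The median log2 fold change of the 7 tested genes was 0.61 over 5xFAD and 1.66 over wild-type in 5xFAD/Cd5l tg/wt, and 0.84 in 5xFAD over wild-type. The medians of all tested genes were 0.007, 0.001 and -0.011 in the same order. Because the genes were chosen with such results known, these shares are set side by side and nothing is read from them. The comparisons share libraries and are not independent. Leaving out the 3 set apart by regional markers keeps 1 5xFAD/Cd5l tg/wt library, which is assumed to vary like the other groups. In that fit 0 of the genes passed over 5xFAD with edgeR: Lilrb4a was at 1.57 (adjusted p = 0.0923), Ptpn6 at 0.64 (adjusted p = 0.087), Ptprc at 0.61 (adjusted p = 0.146) and Cd33 at 0.51 (adjusted p = 0.142). The count over 5xFAD was 1, Lilrb4a, without 5xFAD library 1 or 2 or without library 3 of 5xFAD/Cd5l tg/wt. Oligodendrocyte markers moved with this comparison, with all 8 lower, none past the threshold (4 at an unadjusted p under 0.05, and 1 passed with DESeq2), and sums of 4780 to 7160 CPM in 5xFAD/Cd5l tg/wt and 6810 to 7710 CPM in 5xFAD. Over wild-type in 5xFAD/Cd5l tg/wt all 8 were lower too, with a median log2 value of -0.30 against -0.23 over 5xFAD and none past the threshold (6 at an unadjusted p under 0.05, and 2 passed with DESeq2), and wild-type sums were 7540 to 8390 CPM. Their part in either result was not tested.

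In bulk tissue, more cells of a type and more RNA per cell cannot be told apart. Of the 12 microglial markers, 10 rose in 5xFAD against wild-type, with a median log2 fold change of 0.757, and 0 passed between 5xFAD/Cd5l tg/wt and 5xFAD, with a median of 0.166 (edgeR; 4 at an unadjusted p under 0.05, and 0 passed with DESeq2). Each member was therefore also expressed per 100 CPM of the summed microglial markers. With 3 libraries against 3, an exact permutation test cannot go below p = 0.1, so only values and overlaps are given. Lilrb4a was at 0.360, 0.501 and 0.531 per 100 CPM in 5xFAD/Cd5l tg/wt, 0.142, 0.0966 and 0.165 in 5xFAD, and 0.0756, 0.0433 and 0.0366 in wild-type libraries. Ptpn6 was at 1.5, 1.31 and 1.60 in 5xFAD/Cd5l tg/wt, 1.15, 1.12 and 1.02 in 5xFAD, and 0.786, 0.779 and 0.787 in wild-type libraries. For both genes the 3 genotypes kept separate ranges on this scale.

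Ptprc was at 1.44, 1.64 and 1.89 per 100 CPM of microglial markers in 5xFAD/Cd5l tg/wt, 0.900, 1.12 and 1.15 in 5xFAD, and 1.16, 1.08 and 0.970 in wild-type libraries. Relative to microglial markers, then, 5xFAD and wild-type overlapped and 5xFAD/Cd5l tg/wt lay above both. Cd33 took another order, with 1.87, 2.21 and 1.82 in 5xFAD/Cd5l tg/wt, 1.53, 1.40 and 1.5 in 5xFAD, and 2.28, 2.15 and 2.44 in wild-type libraries. All 5xFAD libraries were lowest for Cd33, and 5xFAD/Cd5l tg/wt overlapped wild-type. On fewer counts, Cd22 was at 0.282 ± 0.113 in 5xFAD/Cd5l tg/wt, 0.183 ± 0.0663 in 5xFAD and 0.077 ± 0.0643 in wild-type (SD, n = 3). There 5xFAD overlapped both others. Siglece was at 0.0838 ± 0.0206, 0.118 ± 0.0106 and 0.212 ± 0.108 in the same order, with 5xFAD/Cd5l tg/wt wholly below wild-type. Pirb was at 0.0783 ± 0.00398, 0.0593 ± 0.0157 and 0.0612 ± 0.025, with 5xFAD/Cd5l tg/wt above 5xFAD and overlapping wild-type. Sirpa was at 59.7 ± 4.38 in 5xFAD/Cd5l tg/wt, 63.6 ± 7.01 in 5xFAD and 102 ± 3.18 in wild-type (SD, n = 3), so both amyloid genotypes were lower than wild-type on this scale. The neuronal markers, which come from cells that also express Sirpa, summed to 7420 to 8200 CPM in 5xFAD/Cd5l tg/wt, 7400 to 7680 CPM in 5xFAD and 7530 to 7760 CPM in wild-type.

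**Figure D3:**
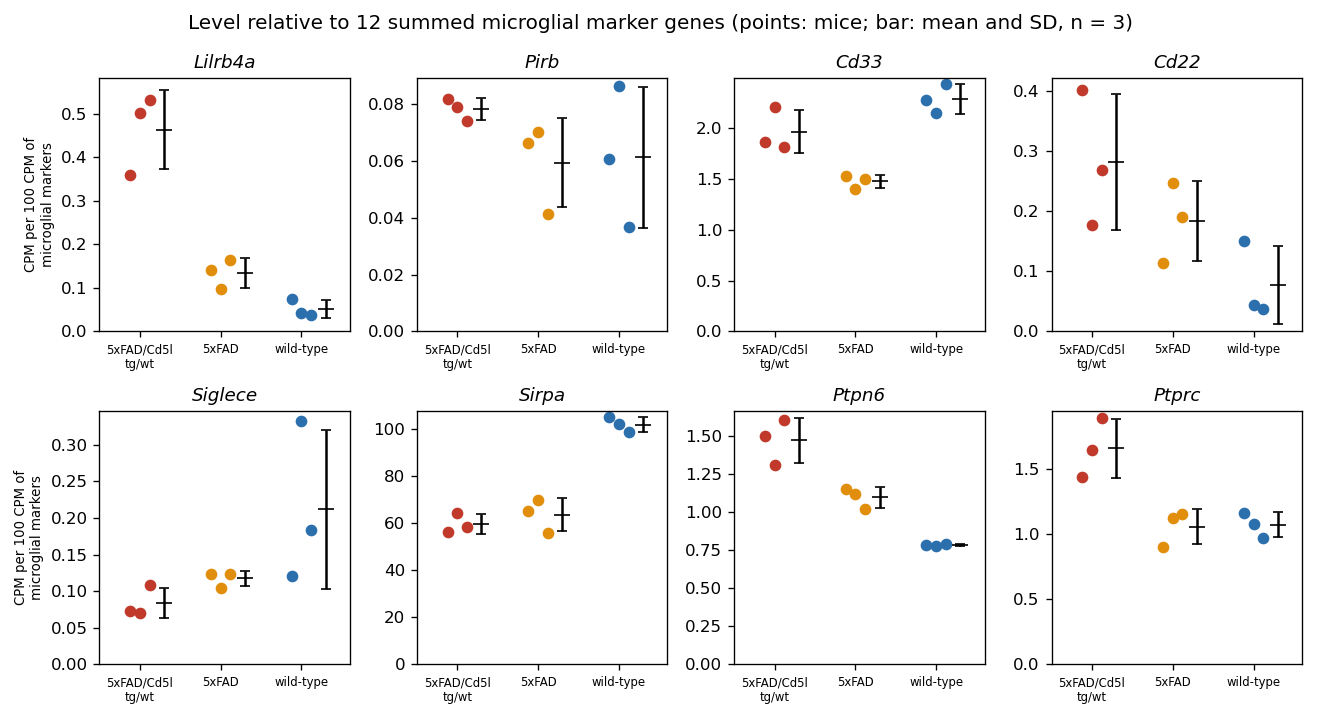
Each gene as CPM per 100 CPM of 12 summed microglial marker genes, by library, with the mean and SD of 3 mice. Ptprc is raised in 5xFAD/Cd5l tg/wt libraries and overlaps between 5xFAD and wild-type, and Cd33 is lowest in 5xFAD.

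Other immune cells also carry some of these genes. Summed CPM of 11 monocyte and neutrophil markers were 0.202 to 0.999 in 5xFAD/Cd5l tg/wt, 0.224 to 0.468 in 5xFAD and 0.243 to 0.899 in wild-type, and Ly6g, Retnlg and Cxcr2 had 0 counts throughout. The T and NK cell list of 12 genes summed to 6.99 to 22.1 CPM in 5xFAD/Cd5l tg/wt, 11 to 11.3 CPM in 5xFAD and 6.57 to 13.8 CPM in wild-type, most of it Cd4, while Cd3e had 5, 2 and 1 counts per genotype in the same order. The 9 B cell markers summed to 36.1 to 50.3 CPM in 5xFAD/Cd5l tg/wt, 31.5 to 40.1 CPM in 5xFAD and 26.7 to 38.0 CPM in wild-type, most of it Ighm, with 2023, 1573 and 1528 counts. Border-associated macrophage markers, 7 genes, summed to 5.33 to 12 CPM in 5xFAD/Cd5l tg/wt, 9.64 to 10 CPM in 5xFAD and 6.63 to 9.61 CPM in wild-type. No gene of the monocyte and neutrophil list reached the filter, and none of the 6 macrophage, 2 T and NK cell and 2 B cell genes tested passed with edgeR or DESeq2 between any pair of genotypes. At an unadjusted p under 0.05 were 1 macrophage gene, Pf4, in each amyloid genotype against wild-type, and 1 B cell gene, Ighm, in 5xFAD/Cd5l tg/wt against either other genotype, all higher, and 0 T and NK cell genes. Pf4 had 33 counts in 5xFAD/Cd5l tg/wt, 48 in 5xFAD and 11 in wild-type, and its log2 fold change in 5xFAD against wild-type was 2.10 ± 0.57 (edgeR, adjusted p = 0.0673).

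**Figure D4:**
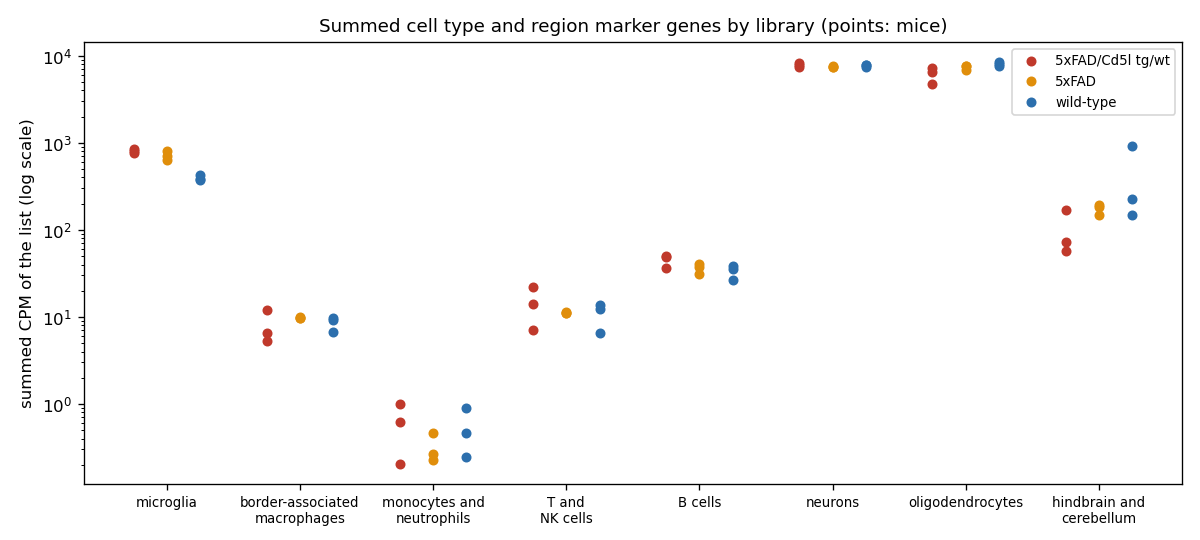
Summed CPM of 8 marker lists (log axis) in each library, coloured by genotype. Microglial sums are lower in the wild-type libraries than in both amyloid genotypes, and hindbrain and cerebellar sums differ widely within the wild-type group, from 149 to 914 CPM.

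Levels of different genes were compared per length, as TPM, which scales counts by the gene lengths of the deposited table and by library size. For 5xFAD/Cd5l tg/wt brains the order was Sirpa at 367 ± 17.2 TPM, Ptpn6 at 15.9 ± 2.15, Cd33 at 7.63 ± 0.541, Ptprc at 2.74 ± 0.429, Lilrb4a at 2.69 ± 0.543, Cd22 at 1.70 ± 0.706, Siglece at 1.38 ± 0.382 and Pirb at 0.529 ± 0.0246 (SD, n = 3). From Ptprc down to Siglece, neighbours in this order overlapped. In 5xFAD brains Ptpn6 was at 10.2 ± 0.712 TPM and Cd33 at 5.01 ± 0.751 TPM, without overlap. Below them came Siglece at 1.68 ± 0.332 TPM and Ptprc at 1.53 ± 0.323 TPM, which overlapped, then Cd22 at 0.952 ± 0.329 TPM and Lilrb4a at 0.692 ± 0.256 TPM, which also overlapped, and last Pirb at 0.342 ± 0.0559 TPM. In wild-type brains Ptpn6 at 4.17 ± 0.201 TPM and Cd33 at 4.38 ± 0.0653 TPM overlapped, followed by Siglece at 1.73 ± 0.976 TPM, Ptprc at 0.873 ± 0.105 TPM and Cd22 at 0.227 ± 0.186 TPM. There Lilrb4a at 0.148 ± 0.0585 TPM came last, overlapping Pirb at 0.207 ± 0.0948 TPM. Sirpa was highest in every genotype, with 338 ± 3.26 TPM in 5xFAD and 309 ± 21.2 TPM in wild-type.

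Among 15900 tested genes with a mean of at least 1 CPM, those with the most similar profile over the 9 libraries were named by the root-mean-square difference of centred log2 CPM. Ptpn6 was closest to Gpr183, an oxysterol receptor gene, at 0.0994 and to the leukocyte integrin gene Itgb2 at 0.133, where its own profile spread by 0.799. Cd22 was closest to Cd48 at 0.377 and Trem2 at 0.443, and Lilrb4a to the lysosomal macrophage gene Cd68 at 0.578 and to Ly9 at 0.593. Cd33 was closest to Parp9 at 0.125 and Vamp8 at 0.131, and Ptprc to Gvin-ps7 at 0.177 and Rasal3 at 0.193. Sirpa was closest to Rnf169 at 0.0354 and 4933404O12Rik at 0.0384, where its own profile spread by 0.122. The own spread was 1.49 for Lilrb4a, 1.2 for Cd22, 0.69 for Ptprc and 0.355 for Cd33, so the distances are not on a like scale between members. For Siglece the nearest were Rpl35a at 0.24 and Cyren at 0.247, with a spread of its own of 0.40. Between members the closest pair was Ptpn6 and Ptprc at 0.261.

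Beyond the 8 genes, the Siglec family had 3 other tested genes of 6 listed. In 5xFAD against wild-type 2 rose and 1 did not pass: Siglecf, a myeloid Siglec with ITIMs, at 2.27 ± 0.34 (log2, edgeR, adjusted p = 0.00264), with 1.64 ± 0.265 CPM in 5xFAD and 0.331 ± 0.0823 CPM in wild-type (SD, n = 3), and Siglech, which signals through TYROBP, at 0.66 ± 0.14 (adjusted p = 0.0229). On average, wild-type Siglecf lay under the filter level, so this gene entered the test through the amyloid genotypes, in which it was high. Mag, the Siglec of myelin, was at -0.25 ± 0.14 (adjusted p = 0.402). Siglech missed the threshold without wild-type library 1 or 3 or 5xFAD library 2 or 3 (adjusted p up to 0.0884). Over 5xFAD none passed in 5xFAD/Cd5l tg/wt (1 at an unadjusted p under 0.05, and 0 passed with DESeq2), and over wild-type Siglecf and Siglech passed.

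Of 15 other inhibitory receptors tested, 6 rose and 9 did not pass in 5xFAD against wild-type, with a median of 0.579. The inhibitory Fc receptor gene Fcgr2b rose by 1.89 ± 0.17 (edgeR, adjusted p = 6.37e-05), Vsir by 1.00 ± 0.11, Havcr2 by 1.45 ± 0.21 and the collagen receptor gene Lair1 by 0.73 ± 0.13, the last not without 5xFAD library 1 (adjusted p = 0.0693). Over 5xFAD, 2 of the 15 rose in 5xFAD/Cd5l tg/wt, with a median of 0.305: Pecam1, an adhesion receptor of endothelium, at 0.50 ± 0.12 (adjusted p = 0.0271), and Ceacam1 at 0.82 ± 0.22 (adjusted p = 0.0444). Both missed the threshold without any 1 of the 5xFAD libraries, without library 2 or 3 of 5xFAD/Cd5l tg/wt, and when the 3 set apart by regional markers were left out (adjusted p up to 0.367 and 0.314). The Ceacam1 call was lost in 12 of 19 refits, also without wild-type library 1 or 2, with upper-quartile scaling, with no filter, in the fit of 6 libraries and with the replicate block. Mean Pecam1 was 21.9 ± 3.32 CPM in 5xFAD/Cd5l tg/wt, 15.5 ± 0.486 CPM in 5xFAD and 19.5 ± 1.01 CPM in wild-type (SD, n = 3). Among the activating partners, Tyrobp, Trem2 and Fcer1g were the 3 tested, and all 3 rose in 5xFAD against wild-type, at 2.08 ± 0.16, 2.02 ± 0.16 and 1.51 ± 0.16. Between 5xFAD/Cd5l tg/wt and 5xFAD none of the 3 passed (1 at an unadjusted p under 0.05, and 0 passed with DESeq2), with a median of 0.08.

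Of 11 other phosphatases that act near ITIMs, 1 rose in 5xFAD against wild-type, Inpp5d, the gene of the lipid phosphatase SHIP1, at 0.67 ± 0.12 (edgeR, adjusted p = 0.00894; 0.0612 without 5xFAD library 1), and 10 did not pass. The list's median was -0.012. Ptpn11, the gene of the related phosphatase SHP-2, averaged 211.5 ± 18.0 CPM in 5xFAD/Cd5l tg/wt, 243 ± 17.8 CPM in 5xFAD and 245 ± 15.3 CPM in wild-type (SD, n = 3) and did not pass in any comparison. Over 5xFAD none of the 11 passed in 5xFAD/Cd5l tg/wt (2 at an unadjusted p under 0.05, and 0 passed with DESeq2). Of 17 other receptor-type tyrosine phosphatases, 2 fell in 5xFAD against wild-type, the endothelial gene Ptprb by 0.77 ± 0.10 and the neuronal gene Ptprd by 0.34 ± 0.06, the Ptprd call lost without wild-type library 2 or 5xFAD library 1 or 2 (adjusted p up to 0.0661). Over 5xFAD, 3 rose in 5xFAD/Cd5l tg/wt, Ptprb at 0.85 ± 0.10 (adjusted p = 0.000642), Ptprd at 0.46 ± 0.06 and Ptprk at 0.45 ± 0.09, where Ptprk missed the threshold without 5xFAD library 1 or 2, without library 2 or 3 of 5xFAD/Cd5l tg/wt, or when the 3 set apart by regional markers were left out (adjusted p up to 0.19). Mean Ptprb was 43.9 ± 4.47 CPM in 5xFAD/Cd5l tg/wt, 24.3 ± 2.28 CPM in 5xFAD and 41.3 ± 2.80 CPM in wild-type (SD, n = 3), with 5xFAD alone low.

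Of 19 kinases and adaptors of the Src and Syk pathways, 2 rose in 5xFAD against wild-type, the exchange factor gene Vav1 at 0.90 ± 0.21 (edgeR, adjusted p = 0.0357) and the adaptor gene Fyb at 0.91 ± 0.21 (adjusted p = 0.0358). Each missed the threshold when any of several single libraries was left out: Vav1 without any 1 of the wild-type libraries, 5xFAD library 1 or 2 or library 3 of 5xFAD/Cd5l tg/wt (adjusted p up to 0.161), and Fyb without wild-type library 1 or 2, 5xFAD library 1 or 3 or library 3 of 5xFAD/Cd5l tg/wt (adjusted p up to 0.177). Both were also lost with limma-voom, Vav1 with the replicate block and Fyb in the fit of 6 libraries. The list's median was 0.301. Over 5xFAD none passed in 5xFAD/Cd5l tg/wt (3 at an unadjusted p under 0.05, and 0 passed with DESeq2), and over wild-type 5 passed. Of 12 ligand genes, B2m, the MHC class I light chain, rose in 5xFAD against wild-type by 0.82 ± 0.12 (adjusted p = 0.00194), and Fn1, which encodes fibronectin, rose over 5xFAD in 5xFAD/Cd5l tg/wt by 0.37 ± 0.10 (adjusted p = 0.0407). The Fn1 call was lost without any 1 of the 5xFAD libraries, wild-type library 2 or library 1 or 3 of 5xFAD/Cd5l tg/wt, and with upper-quartile scaling or the replicate block (adjusted p up to 0.178). Cd47, the SIRPα ligand, averaged 179.8 ± 13.7 CPM in 5xFAD/Cd5l tg/wt, 176 ± 3.41 CPM in 5xFAD and 171 ± 4.04 CPM in wild-type (SD, n = 3) and did not pass. Of 32 genes of sialic acid synthesis, transfer and removal, 0 passed in 5xFAD against wild-type (edgeR; 5 at an unadjusted p under 0.05, and 0 passed with DESeq2), with a median of 0.035. Over 5xFAD, 1 fell in 5xFAD/Cd5l tg/wt, the polysialyltransferase gene St8sia2, by 0.82 ± 0.18 (adjusted p = 0.0188), a call lost without 5xFAD library 2 or 3, without library 2 or 3 of 5xFAD/Cd5l tg/wt, or when the 3 set apart by regional markers were left out (adjusted p up to 0.175).

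**Figure D5:**
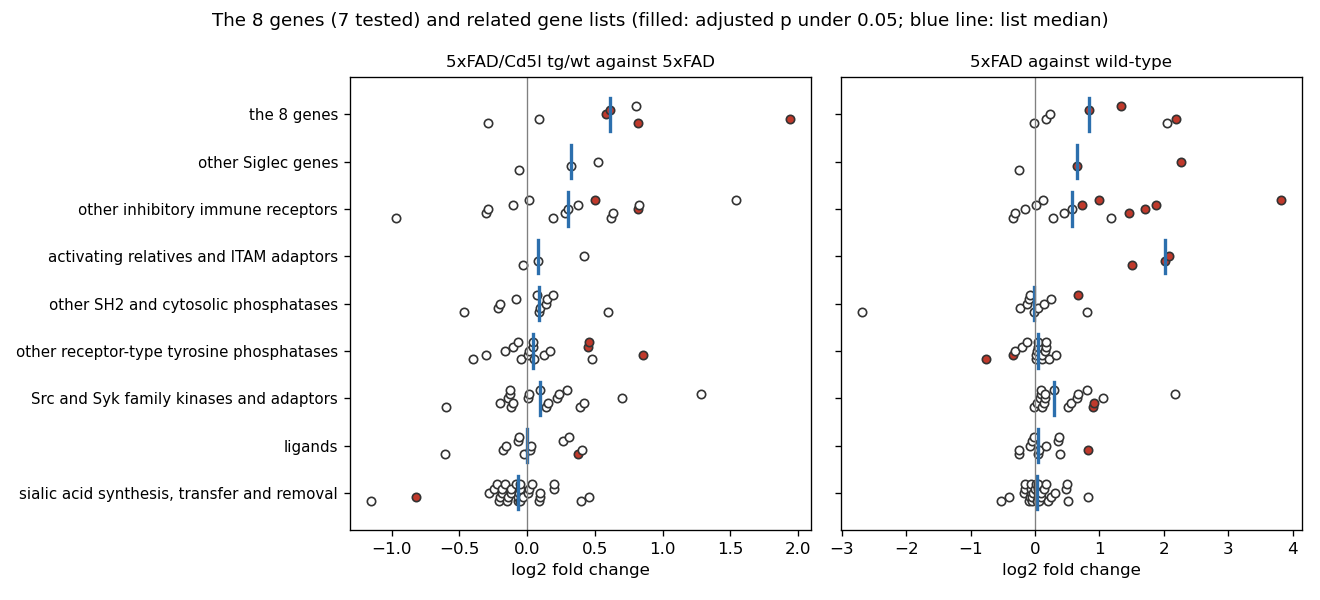
Log2 fold changes of the tested genes among the 8 and of 8 related lists, with 5xFAD/Cd5l tg/wt over 5xFAD on the left and 5xFAD over wild-type on the right. Filled points passed an adjusted p of 0.05 and the blue line is the list median, which for the tested members is 0.61 and 0.84.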

How the data were processed

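The authors deposited read counts per gene for 9 libraries, whole numbers that were not normalized, with gene identifiers, coordinates and lengths. The genome build is GRCm39, per the submitters' processing notes. Not given in the sources used here are the aligner, the counting tool, whether counting used strand, and how reads matching more than 1 gene were assigned. Genes on the opposite strand or overlapping a member held at most 13 counts each over all libraries.

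Genes were filtered with filterByExpr (minimum count 10, minimum total 15), and the removed genes held no more than 0.161% of any library. After TMM scaling (factors 0.987 to 1.02), the 9 libraries entered 1 edgeR quasi-likelihood fit with a mean for each genotype (R 4.3.3 with edgeR 4.0.16 and limma 3.58.1). The threshold was 0.05 on p-values adjusted by Benjamini-Hochberg across the 17575 tested genes. SE is the absolute log2 fold change divided by the square root of F. The 95% intervals come from it with the multiplier of a normal distribution, so they are somewhat narrower than the F test would give. CPM use the scaled library sizes. The method was tested on simulated counts. Scaling (RLE, upper quartile, total counts), the filter, the tool (DESeq2 1.42.0, limma-voom), the threshold, the libraries used and a replicate block were varied.

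Members, lists and the naming rule (members, up to 4 genes per list with the smallest p in 5xFAD against wild-type, every list gene that passed in 5xFAD/Cd5l tg/wt against 5xFAD, the 2 most similar profiles per member) were chosen with earlier results of these data known. Ptpn11, Cd47 and the paralogs were named after their values were seen. No pair of libraries within a genotype agreed within sampling noise. Some results are not reported here.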

Additional observations from a re-analysis of the deposited data

How the results depend on the processing

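Of 398 refits of the members' log2 fold changes, 351 kept direction and side of the threshold, 34 lost the threshold, 7 gained it and 6 changed sign. The number of members past the threshold in 5xFAD against wild-type, 3, was 1 with limma-voom and 1 at an adjusted p under 0.01, and 1 to 4 when single libraries were left out. In 5xFAD/Cd5l tg/wt against 5xFAD, 4 became 0 without the 3 libraries apart in regional markers and 1 at an adjusted p under 0.01, and ran from 1 to 4 when single libraries were left out. In 5xFAD/Cd5l tg/wt against wild-type, 5, it ran from 4 to 6. Sign changes concerned Siglece and Sirpa. Siglece in 5xFAD against wild-type was 0.10 with limma-voom, 0.0096 with the replicate block, 0.56 without wild-type library 2 and 0.13 without 5xFAD library 2. Its range was -0.32 to 0.56 when single libraries were left out. Over wild-type in 5xFAD/Cd5l tg/wt it was 0.26 without wild-type library 2, with a range of -0.61 to 0.26. Sirpa in 5xFAD/Cd5l tg/wt against 5xFAD was -0.0006 without the 3 libraries apart. The cause was not tested. Lilrb4a had no value in the fit of only the 6 libraries of 5xFAD and wild-type, where it was under the filter.

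Same-numbered libraries did not deviate together (correlations of -0.1 to 0.154), so replicate numbers were not treated as pairs. With the replicate block the member counts were 3, 3 and 5, and Ptpn6 in 5xFAD/Cd5l tg/wt against 5xFAD had an adjusted p of 0.0549.

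The counts over all tested genes moved as well. For 5xFAD against wild-type, 615 was 206 to 850 without single libraries, 1354 with no filter, 1154 without the 3 libraries apart, and 197 and 958 at adjusted p under 0.01 and 0.1. For 5xFAD/Cd5l tg/wt against 5xFAD, 1095 was 278 to 2069, 2063, 630, 339 and 1940 under the same settings. Over wild-type in 5xFAD/Cd5l tg/wt, 277 was 158 to 686, 1062 with no filter, 467 with DESeq2, 176 in the fit of 6 libraries, and 147 and 417 at adjusted p under 0.01 and 0.1. Of the genes of related lists that passed, 9 of 17 calls in 5xFAD against wild-type and 2 of 7 in 5xFAD/Cd5l tg/wt over 5xFAD passed under every refit. Depth limits Pirb, Siglece, Cd22 and Lilrb4a, whose libraries held fewer than 100 counts each.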

Other observations

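Cd33 and Trem2 encode microglial receptors. TREM2 is activating through TYROBP. The human CD33 protein is inhibitory, but this was not examined for mouse CD33, so the ratio below is not one of inhibition to activation. Per length, Cd33 was at 0.139 ± 0.0303 of the Trem2 level in 5xFAD/Cd5l tg/wt brains, 0.122 ± 0.0047 in 5xFAD and 0.432 ± 0.0915 in wild-type (SD, n = 3). The ratio was 0.119, 0.173 and 0.123 in 5xFAD/Cd5l tg/wt libraries, 0.124, 0.125 and 0.116 in 5xFAD libraries, and 0.353, 0.411 and 0.532 in wild-type libraries. The amyloid genotypes overlapped each other and lay below every wild-type library. Trem2 stood at 61.5, 47.6 and 59.4 TPM in 5xFAD/Cd5l tg/wt, 40.2, 34.2 and 49.7 TPM in 5xFAD, and 12.2, 10.6 and 8.36 TPM in wild-type. No test was made of the ratio, since 3 libraries against 3 cannot give an exact permutation p below 0.1.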
